A study of Mus musculus with 4 samples.

Results

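The chromatin at 10 genes of the TGF-β pathway was described in the aorta from 4 lists of ATAC-seq peaks. The genes were the ligands *Tgfb1*, *Tgfb2* and *Tgfb3*, the receptors *Tgfbr1*, *Tgfbr2* and *Tgfbr3*, and the intracellular mediators *Smad2*, *Smad3*, *Smad4* and *Smad7*. Every peak that overlapped the body of a gene (GENCODE vM21) or the 20 kb on either side of it was taken as a member. The peaks merged into 71 regions, of 42961 regions over the whole of the 4 lists. Aortic nuclei came from 60-day-old mice on a C57BL/6J background that were either control (*Col3a1*+/+) or VEDS (*Col3a1*G938D/+), the latter carrying in a single copy of *Col3a1* a glycine substitution that models vascular Ehlers-Danlos syndrome, a disorder of type III collagen with arterial dissection and rupture. The controls were labelled as untreated, and no drug was named for the VEDS mice. There was 1 library for each genotype and sex, and each library pooled the aortas of 2 mice, and in a comparison of control female with VEDS male, the only libraries with many peaks, sex, genotype and library cannot be told apart. Barcodes were analysed together in each library, so that a site open in more nuclei and a site more open in each nucleus cannot be told apart either. ATAC-seq uses the transposase Tn5 to insert adapters into open DNA, and a peak marks a stretch with more insertions than its surroundings.

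TGF-β ligands are secreted in a latent form that is held in the extracellular matrix. Once released, a ligand binds the type II receptor TGFBR2, which recruits and activates the type I receptor TGFBR1, and betaglycan, the product of *Tgfbr3*, presents ligand to them. The active receptor phosphorylates SMAD2 and SMAD3, which join SMAD4 and act on genes in the nucleus, whereas SMAD7 is induced by the pathway and inhibits it. Heterozygous variants of *TGFB2*, *TGFB3*, *TGFBR1*, *TGFBR2*, *SMAD2* and *SMAD3* cause Loeys-Dietz syndrome, a heritable disease of aortic aneurysm and dissection. SMAD proteins bind short elements in DNA such as the CAGA box, often beside sites of AP-1, the dimer of JUN and FOS proteins.

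The member peaks were confined to 2 of the 4 lists. The control female list held 36 of them among 21176 peaks (0.170%), and the VEDS male list held 69 among 41444 (0.166%). The control male list, with 1236 peaks, and the VEDS female list, with 504, held 0. At the share that the genes took in the control female list, 2.10 and 0.857 member peaks would have been counted in those short lists, so that their absence was not distinguishable at that length. A gene without a peak in a short list was therefore not read as closed. Fragments at each summit, computed back from the fold enrichment and −log10 p of the lists, had a median over each whole list of 14 in control female, 22 in VEDS male, 7 in control male and 6 in VEDS female. Whether the peak caller counted whole fragments or Tn5 cut sites is not given in the sources used here. If it counted cut sites, the values are cut sites, both ends of 1 fragment can enter, and the Poisson intervals are too narrow. Of the control male peaks, 69.6% lay for more than 50% of their length in repeat-masked sequence, against 3.90% in control female. The cell types were checked by promoter peaks, that is, peaks within 3 kb of a transcription start site (TSS). In both long lists all 7 markers of vascular smooth muscle cells (VSMCs) had such a peak. Of 5 endothelial markers 1 had it in control female and 4 in VEDS male, of 4 fibroblast markers 2 and 2, of 4 immune markers 0 and 1, of 4 adipocyte markers 0 and 1, and of 5 markers of striated muscle 1 and 2. Of all protein-coding genes, 47.4% had a promoter peak in control female and 58.5% in the longer VEDS male list. The fibroblast counts were thus near the share of all genes. None of these marker genes had a promoter peak in a short list, where 1.56% (control male) and 1.49% (VEDS female) of protein-coding genes had one.

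Sequences of named regions are given here, read from the plus strand of mm10 with the motifs named before each sequence in capitals. Matches of other motifs, such as the GC SMAD site GGCGC, are left in lower case. No sequence is given for *Smad2*, *Smad4* and *Smad7*. How many of all windows hold a CAGA box together with an AP-1 site was not counted. No excess of such windows is read here. Shown in front are the windows at *Smad3* in which a SMAD CAGA box (CCAGACA) lay within 300 bp of sequence with an AP-1 site (TGANTCA), in intron 3 (chr9:63666739-63667018, control female) and in intron 1 (chr9:63746255-63746438, VEDS male), and the stretch around the only intronic member peak of the control female list that the VEDS male list lacked (chr9:63747742-63748004), with AP-1 sites at 2 positions and a MEF2 site inside the peak and a TEAD site (GGAATG) outside it.
*Smad3* intron 3, CAGA box then AP-1: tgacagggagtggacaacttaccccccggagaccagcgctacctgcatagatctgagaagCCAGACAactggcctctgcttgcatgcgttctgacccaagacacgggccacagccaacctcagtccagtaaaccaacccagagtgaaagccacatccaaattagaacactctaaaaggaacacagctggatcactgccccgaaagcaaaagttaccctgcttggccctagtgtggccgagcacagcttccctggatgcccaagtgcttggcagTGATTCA
*Smad3* intron 1, AP-1 then CAGA box: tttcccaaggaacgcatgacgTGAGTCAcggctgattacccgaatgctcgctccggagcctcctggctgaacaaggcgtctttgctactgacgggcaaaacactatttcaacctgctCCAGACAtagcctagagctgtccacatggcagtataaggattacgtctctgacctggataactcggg
*Smad3* intron 1, TEAD, AP-1, AP-1 and MEF2: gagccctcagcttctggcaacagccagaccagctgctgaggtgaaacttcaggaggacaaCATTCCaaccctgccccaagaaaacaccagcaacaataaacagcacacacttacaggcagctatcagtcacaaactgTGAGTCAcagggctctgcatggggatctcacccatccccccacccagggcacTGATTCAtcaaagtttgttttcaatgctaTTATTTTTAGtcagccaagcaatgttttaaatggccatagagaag

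The next set comes from regions of receptors and ligands that carried AP-1 and that were, in at least 1 long list, the strongest of their gene farther than 3 kb from a TSS, whatever their rank in the whole list. They lay in intron 2 of *Tgfbr2* (chr9:116152939-116153175), in intron 8 of *Tgfbr1* (chr4:47407219-47407427), downstream of *Tgfbr3* (chr5:107087308-107087419), downstream of *Tgfb2* (chr1:186610068-186610187) and downstream of *Tgfb3* (chr12:86039900-86040026). A weak region downstream of *Tgfb1* (chr7:25711873-25712157) also met this rule in VEDS male, and its sequence is not given.
*Tgfbr2* intron 2, TEAD, AP-1 and AP-1: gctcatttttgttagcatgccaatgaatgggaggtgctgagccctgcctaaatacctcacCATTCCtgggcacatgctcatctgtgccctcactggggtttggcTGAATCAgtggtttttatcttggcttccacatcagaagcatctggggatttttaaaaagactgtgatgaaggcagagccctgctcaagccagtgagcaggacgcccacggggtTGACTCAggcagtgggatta
*Tgfbr1* intron 8, TEAD then AP-1: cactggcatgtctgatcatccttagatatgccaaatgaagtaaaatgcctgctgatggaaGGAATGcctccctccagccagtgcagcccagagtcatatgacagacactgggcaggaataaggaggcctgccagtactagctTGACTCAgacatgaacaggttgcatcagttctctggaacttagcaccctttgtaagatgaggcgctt
*Tgfbr3* downstream, AP-1 and AP-1: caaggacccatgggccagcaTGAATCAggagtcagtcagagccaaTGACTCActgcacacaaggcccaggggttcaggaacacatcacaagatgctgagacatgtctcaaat
*Tgfb2* downstream, AP-1: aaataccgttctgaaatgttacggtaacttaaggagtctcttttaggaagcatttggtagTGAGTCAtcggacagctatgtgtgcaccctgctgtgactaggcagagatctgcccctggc
*Tgfb3* downstream, AP-1: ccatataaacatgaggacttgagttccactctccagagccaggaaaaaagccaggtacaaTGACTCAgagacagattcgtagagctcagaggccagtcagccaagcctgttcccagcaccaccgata

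The rare elements follow. A palindromic SMAD element (GTCTAGAC) lay just downstream of *Tgfb2* (chr1:186622357-186622484), and an SRF CArG box, the element of smooth muscle contractile genes, lay in intron 4 of *Tgfbr3* (chr5:107167926-107168055).
*Tgfb2* downstream, palindromic SMAD element: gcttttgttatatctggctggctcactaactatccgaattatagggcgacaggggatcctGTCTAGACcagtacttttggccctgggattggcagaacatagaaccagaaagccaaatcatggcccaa
*Tgfbr3* intron 4, SRF CArG box: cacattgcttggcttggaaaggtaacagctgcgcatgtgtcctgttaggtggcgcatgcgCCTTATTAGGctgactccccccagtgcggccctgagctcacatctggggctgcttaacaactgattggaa

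The last set compares the sequence just upstream of a weakly open start, that of *Tgfb1* (chr7:25686778-25686914), with the upstream sequence of the 2 promoters of highest rank, those of *Smad3* (chr9:63758100-63758306) and *Tgfbr1* (chr4:47353029-47353192). The capitals are KLF/SP sites (GGGCGG on either strand).
*Tgfb1* upstream: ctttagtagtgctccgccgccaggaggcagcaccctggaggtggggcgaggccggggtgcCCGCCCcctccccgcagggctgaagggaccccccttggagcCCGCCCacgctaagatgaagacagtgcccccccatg
*Smad3* upstream: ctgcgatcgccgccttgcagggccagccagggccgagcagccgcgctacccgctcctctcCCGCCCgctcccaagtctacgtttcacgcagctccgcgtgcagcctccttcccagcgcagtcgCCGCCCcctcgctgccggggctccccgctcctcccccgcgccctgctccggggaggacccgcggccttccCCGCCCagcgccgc
*Tgfbr1* upstream: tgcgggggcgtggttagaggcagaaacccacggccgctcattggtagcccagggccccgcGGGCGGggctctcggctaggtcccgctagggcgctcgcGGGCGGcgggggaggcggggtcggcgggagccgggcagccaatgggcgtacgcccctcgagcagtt

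The ligand genes held 24 regions over 243.6 kb, of which 9 had a peak in both long lists. *Tgfb1*, the prototype of the family, lies on chromosome 7 (25687002 to 25705077, plus strand) and was the only one of the 10 genes with no promoter peak in the control female list. In the VEDS male list it had weak ones. A peak of 23 fragments lay 135 bp upstream of its start (chr7:25686680-25686867, rank 29893), and a peak of 26 fragments lay in intron 1 beside an internal start (chr7:25689135-25689511, rank 24541). Ranks are by −log10 q, with 1 the strongest. Although the *Tgfb1* locus held 4 control female peaks and 7 VEDS male peaks, the nearest TSS was that of a neighbouring gene for all 4 and for 5 of the 7. The strongest lay over the start of *B9d2* (chr7:25680640-25681134, 19 fragments in control female and 53 in VEDS male) and over that of *Ccdc97* (chr7:25718849-25719257, 18 and 37 fragments). The strongest VEDS male peak farther than 3 kb from a TSS lay downstream of *Tgfb1* (chr7:25711873-25712157, rank 34590). It was shared, with 8 fragments in control female and 17 in VEDS male, and had AP-1 in both windows. The RefSeq promoter of *Tgfb1*, from 250 bases before to 50 after its start, had a GC content of 77.0% and 6 KLF/SP sites, where the median GC content of all RefSeq promoters was 52.7% and 35.7% of them held at least 1 such site. The RefSeq promoter of *Smad3* held 2, as did that of *Tgfbr1* at chr4:47352972-47353271, whereas a further *Tgfbr1* promoter in the table (chr4:47385966-47386265) held 0.

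*Tgfb2* (chromosome 1, 186622792 to 186705989, minus strand) had 3 peaks in control female and 11 in VEDS male. Over its 5′ exon the promoter region chr1:186705199-186705654 had 11 fragments (95% Poisson interval, 5.49–19.7) in control female and 24 (15.4–35.7) in VEDS male, and the start of the noncoding gene *Gm29491* lay nearer to these peaks than its own. A further peak over the start itself, chr1:186705927-186706153, was listed in VEDS male with 22 fragments. The strongest region more than 3 kb from any TSS was the AP-1 site downstream of the gene (chr1:186609961-186610358), with 15 fragments in control female and 35 in VEDS male. The peak with the palindromic SMAD element (chr1:186622274-186622425) was of 11 fragments and was listed in VEDS male only.

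*Tgfb3* (chromosome 12, 86056745 to 86079041, minus strand) had 3 and 5 peaks. Its promoter region, chr12:86078918-86079637, had 15 fragments in control female and 44 in VEDS male. Upstream of it, the strongest region of the locus (chr12:86091251-86092162) had 27 and 73 fragments and a CArG box in both windows, but it lay at a TSS of *Ift43*, a gene of ciliary transport. A region in VEDS male only at another start of *Ift43* (chr12:86082513-86082827, 39 fragments, rank 15117) was among the 3 strongest VEDS male member peaks with no control female counterpart. The AP-1 site downstream of *Tgfb3* (chr12:86039879-86040090) had 9 and 18 fragments.

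Of the receptors, *Tgfbr1* and *Tgfbr2* had few regions and strong promoters, whereas *Tgfbr3* had many regions along its length. *Tgfbr1* (chromosome 4, 47353222 to 47414931, plus strand) had 1 peak in control female, its promoter (chr4:47352902-47353310), with 28 fragments (18.6–40.5). In VEDS male the same promoter had 79 (62.5–98.5), the most of any member peak, and ranked 3012. The list added 3 peaks, of which that in intron 8 (chr4:47407237-47407520, 21 fragments) carried an AP-1 site 7 bp and a TEAD site 75 bp from its summit. *Tgfbr2* (chromosome 9, 116084293 to 116175360, minus strand) had its promoter (chr9:116175056-116175503) in both lists, with 20 fragments in control female and 49 in VEDS male. Its other shared region, in intron 2 (chr9:116152830-116153270), had 15 and 57 fragments and ranked 9461 and 3647. It thus stood below the promoter in control female and above it in VEDS male, although the Poisson intervals of 57 and 49 fragments overlapped. All 3 matches printed above for this site lay inside the peak.

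*Tgfbr3*, which encodes betaglycan, spans 183060 bp of chromosome 5 (107106570 to 107289629, minus strand) and had 8 peaks in control female and 14 in VEDS male. All 8 were shared. Its promoter (chr5:107289269-107289763) had 13 and 29 fragments and was not the strongest region in either list. In control female that was the AP-1 site downstream of the gene (chr5:107087257-107087708, 18 fragments, rank 5716), which had 39 fragments in VEDS male. In VEDS male it was a region in intron 2 (chr5:107237998-107238357), with 53 fragments and rank 4668, where control female had 9 fragments and rank 18106. Intron 1 held a region with 16 and 49 fragments (chr5:107276896-107277387), and intron 4 the region with the CArG box (chr5:107167457-107168208), with 13 and 36 fragments.

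The receptor-regulated *Smad2* and *Smad3* differed in their number of regions. *Smad2* (chromosome 18, 76241580 to 76310963, plus strand) had 1 peak in each long list, both at its promoter (chr18:76240983-76241928), with 17 and 49 fragments. This was 0.914 peaks per 100 kb of gene and flanks in both lists, and 41.1% of 21938 protein-coding genes had that density or less in control female and 30.0% in VEDS male. *Smad3* (chromosome 9, 63646767 to 63757994, minus strand) had 6 peaks in control female and 15 in VEDS male, or 3.97 and 9.92 per 100 kb, at the percentiles 80.3 and 93.3. Its promoter (chr9:63757934-63758427) ranked 2865 in control female with 30 fragments (20.2–42.8), the highest rank of all members in that list, and 3259 in VEDS male with 74 (58.1–92.9).

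Of the 16 *Smad3* regions, 4 were shared, and 11 of the others came from the VEDS male list alone. In both long lists the strongest *Smad3* peak farther than 3 kb from a TSS was that of the shared region in intron 8 (chr9:63650751-63651305). It had 19 and 43 fragments and a CTCF core in both windows. The shared region in intron 3 (chr9:63666653-63667538) lay 106 bp from an internal start and was called as 2 peaks in control female, of 15 and 21 fragments, and as 1 of 38 fragments in VEDS male. The window of the 15-fragment peak held the CAGA box, 70 bp from the summit and inside the peak, and the AP-1 site, 143 bp from it and outside. The window of the VEDS male peak was centred elsewhere and held a TEAD site but neither of these. The shared region in intron 1 (chr9:63712746-63713172), with 17 and 35 fragments, held a CAGA box in the windows of both lists. The other window with both elements (chr9:63746303-63746457) was of a weak VEDS male peak, with 15 fragments and rank 35564. There too the CAGA box, 33 bp from the summit, was inside the peak and the AP-1 site, 129 bp from it, outside. In the same intron, the control female list had its own weak peak of 8 fragments (chr9:63747847-63747999, rank 19394), which was 1 of only 2 member peaks absent from VEDS male. The other was downstream of *Tgfb1* (chr7:25710157-25710284, 10 fragments, rank 18119). The strongest VEDS male member peak with no control female counterpart was in intron 5 of *Smad3* (chr9:63659011-63659303, 32 fragments, rank 14680).

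*Smad4*, the partner of the receptor-regulated SMADs (chromosome 18, 73639009 to 73703780, minus strand), had a promoter region with 18 and 46 fragments (chr18:73703689-73704116). Its fold enrichment over local background was 9.61 in control female and 13.5 in VEDS male, the latter the highest of the 10 promoters. Its only other shared region lay in intron 1 in sequence that was 100% repeat-masked, as a VEDS male peak of 2960 bp with 14 fragments (chr18:73689711-73692670) over a pair of control female peaks with 5 fragments each. A VEDS male peak downstream (chr18:73622999-73623361, 22 fragments, rank 16050) was also among the 3 strongest with no counterpart, and its nearest protein-coding TSS was that of *Mex3c*.

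All 5 regions of *Smad7*, the inhibitory SMAD (chromosome 18, 75367529 to 75395935, plus strand), were shared by the long lists. Its promoter region (chr18:75366516-75367458) also covered a start of the noncoding gene *Gm20544*. It had 26 fragments in control female and 42 in VEDS male, at summits 527 bp apart, and a palindromic SMAD element lay in the control female window. Intron 3 held a region with 17 and 46 fragments (chr18:75378523-75379132) and another with 8 and 31 (chr18:75386195-75386563). Downstream of the gene, neighbouring regions had 14 and 46 fragments (chr18:75404955-75405272), with a CAGA box in both windows, and 15 and 67 fragments (chr18:75405672-75406053). The latter was the strongest peak of the locus in VEDS male, with rank 3686, and the third in control female.

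**Figure D1:**
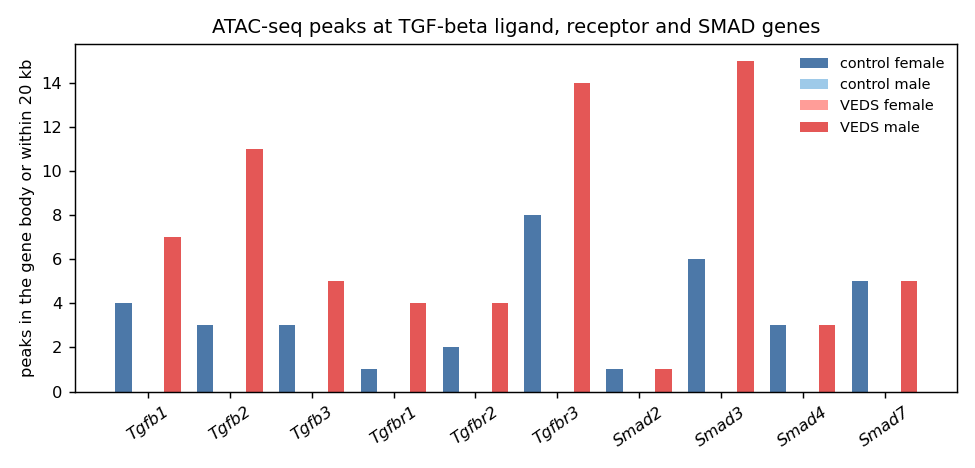
Number of peaks (vertical axis) in the body or within 20 kb of each of the 10 genes (horizontal axis), with 1 bar for each of the 4 libraries. The control male and VEDS female bars are at 0 throughout, and *Smad2*, *Smad4* and *Smad7* have as many peaks in control female as in VEDS male (1, 3 and 5), whereas the other genes have more in VEDS male.

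**Figure D2:**
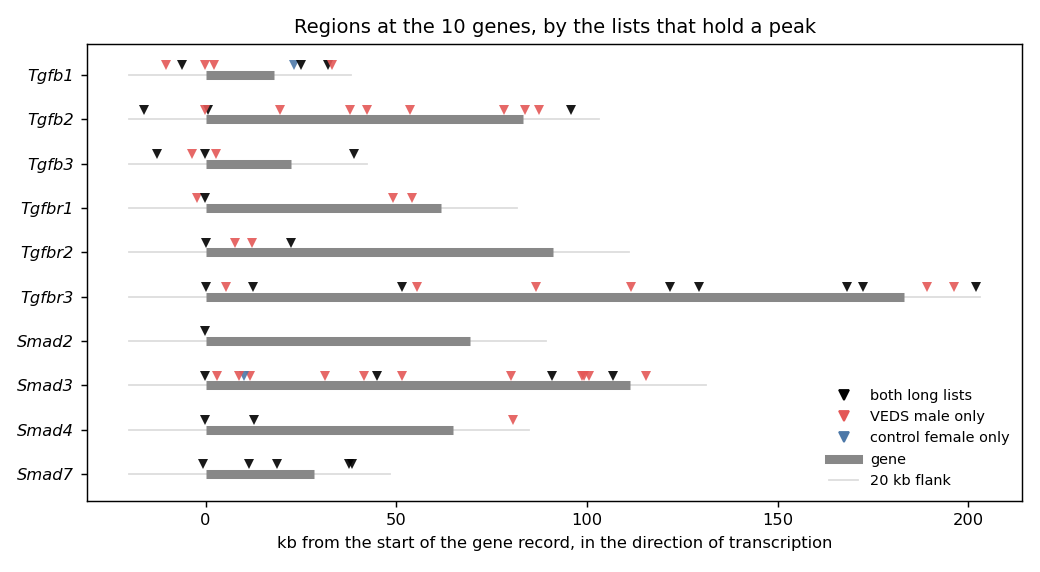
Position of the 71 regions along the 10 genes, in kb from the start of the gene record (horizontal axis), with gray bars for the genes and thin lines for the 20 kb flanks. Triangles are black for the 32 regions with a peak in both long lists, red for the 37 in VEDS male only and blue for the 2 in control female only.

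Promoters were ordered by the peak of highest rank within 3 kb of any start of the gene. In each long list those of *Smad3* and *Tgfbr1* had the most fragments. Among the promoters listed, that of *Tgfb2* had the fewest. For *Tgfb1* in VEDS male the peak used lay at the internal start, and the peak near its own start had 23 fragments. In control female the order was *Smad3*, *Tgfbr1*, *Smad7* (26 fragments), *Tgfbr2* (20), *Smad4* (18), *Smad2* (17), *Tgfb3* (15), *Tgfbr3* (13) and *Tgfb2*, with *Tgfb1* unlisted. In VEDS male it was *Tgfbr1*, *Smad3*, *Tgfbr2* and *Smad2* (49 each), *Smad4* (46), *Tgfb3* (44), *Smad7* (42), *Tgfbr3* (29), *Tgfb1* (26) and *Tgfb2* (24). The 95% Poisson intervals of every pair of neighbours in both orders overlapped, and the intervals of the top and the bottom gene did not. A promoter peak was present at 9 of the 10 genes in control female, where 47.4% of protein-coding genes had one, and at 10 of 10 in VEDS male, where 58.5% did. The short lists had a promoter peak at 0 of 10, against 1.56% of genes in control male and 1.49% in VEDS female. Since 1 peak can serve the starts of several genes, these shares describe the genes and were not tested.

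Peaks per 100 kb had a median over the 10 genes of 3.22 in control female and 6.79 in VEDS male, beside 1.53 and 2.42 over all protein-coding genes. The range over the members was 0.914 to 7.31 in control female and 0.914 to 12.1 in VEDS male. The ligands had 4.11 and 9.44 peaks per 100 kb, the receptors 2.41 and 4.83, and the SMADs 3.46 and 5.53. The nearest protein-coding TSS belonged to the member itself for 31 of 36 control female peaks and 61 of 69 VEDS male peaks, and the exceptions lay at the neighbours of *Tgfb1*, *Tgfb3* and *Smad4*. The ligand density in both lists thus includes peaks nearest to other protein-coding genes, and the receptor density does not. With noncoding genes counted as well, the nearest TSS was the member's for 22 of 36 and 48 of 69 peaks. By annotation, 16 of the 36 control female peaks (44.4%, 95% Wilson interval 29.5–60.4) were within 3 kb of a TSS of any gene, beside 56.6% of all peaks of the list. Introns held 13 (36.1%, 22.5–52.4), beside 22.1%. In VEDS male the figures were 28 of 69 at promoters (40.6%, 29.8–52.4), beside 46.6%, and 30 in introns (43.5%, 32.4–55.2), beside 27.9%. The rule takes whole gene bodies, so that a higher share of introns is partly built into it.

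Of the 71 regions, 32 had a peak in both long lists (45.1%), where 45.7% of all regions did. Of the control female member peaks 34 of 36 overlapped a VEDS male peak (94.4%, 81.9–98.5), beside 95% of all control female peaks. Of the VEDS male member peaks 32 of 69 overlapped a control female peak (46.4%, 35.1–58.0), beside 47.6% of all. The share followed the rank. With the VEDS male list divided by rank into 5 equal parts, 11 of 11 member peaks were shared in the strongest, 15 of 18 in the next, and in the weaker parts 2 of 8, 3 of 15 and 1 of 17, beside 97.6%, 75.1%, 39.6%, 18.1% and 7.52% of all peaks. The member peaks in VEDS male only had a median of 16 fragments, and those that were shared a median of 40.5. Over all 19588 regions with fragments in both lists the VEDS male value was 2.45 times the control female value at the median. Divided by that ratio, 16 fragments came to 6.52, beside a lowest value of 5 and a median of 14 over the whole control female list. Unshared peaks of the whole VEDS male list had a median of 15. Whether such sites would have been called at the depth of control female was not tested. No genotype was read from the peaks in VEDS male only.

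**Figure D3:**
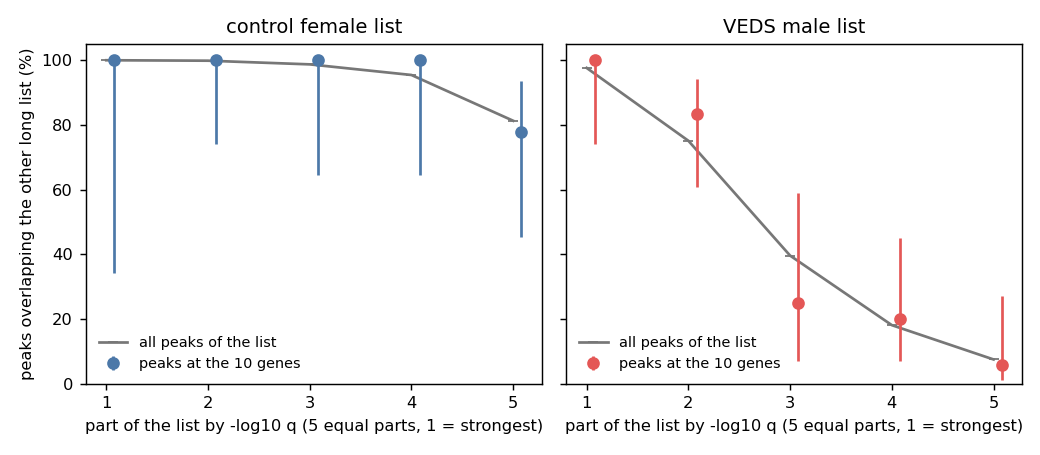
Share of peaks that overlap the other long list (vertical axis, %) in each of 5 equal parts of the list (horizontal axis, 1 the strongest by −log10 q), for control female (left) and VEDS male (right). Points are peaks at the 10 genes with 95% Wilson intervals, and the gray line is all peaks of the list, which in VEDS male falls from 97.6% to 7.52%.

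Fragments at the 32 shared regions were then compared with that median ratio, a comparison chosen after the data had been seen. The log2 ratio of VEDS male to control female, relative to the median of all shared regions, had a median of 0.07 over the members, and the middle 50% of all regions lay between −0.26 and 0.26. In 4 of 32 member regions VEDS male was at least 1.5 times higher, beside 6.81% of all regions, and in 1 it was at least 1.5 times lower, beside 7.94%. The higher regions all lay away from promoters, in intron 2 of *Tgfbr3* (1.26, exact 95% interval 0.23 to 2.47), downstream of *Smad7* (0.86, 0.04 to 1.78), in intron 3 of *Smad7* (0.66, −0.49 to 1.99) and in intron 2 of *Tgfbr2* (0.63, −0.21 to 1.56). Over all shared regions, 7.05% of those away from promoters and 6.63% of those at promoters were at least 1.5 times higher. The *Tgfbr3* region and the *Smad7* intron region had only 9 and 8 fragments in control female. The lower region was the *Smad7* promoter (−0.60, −1.34 to 0.16), where the counts of the 2 lists come from summits 527 bp apart. Thus 2 of 32 intervals left out 0, beside 1.64% of the intervals of all shared regions. Of all shared regions, 99.8% had a ratio at or below that of the *Tgfbr3* intron. The 15 member regions at promoters had a median of 0.01, and the 17 others a median of 0.17, where all promoter regions had 0.03 and all others −0.05. With 1 library a side these ratios have no replicate check, and the intervals cover counting error only.

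**Figure D4:**
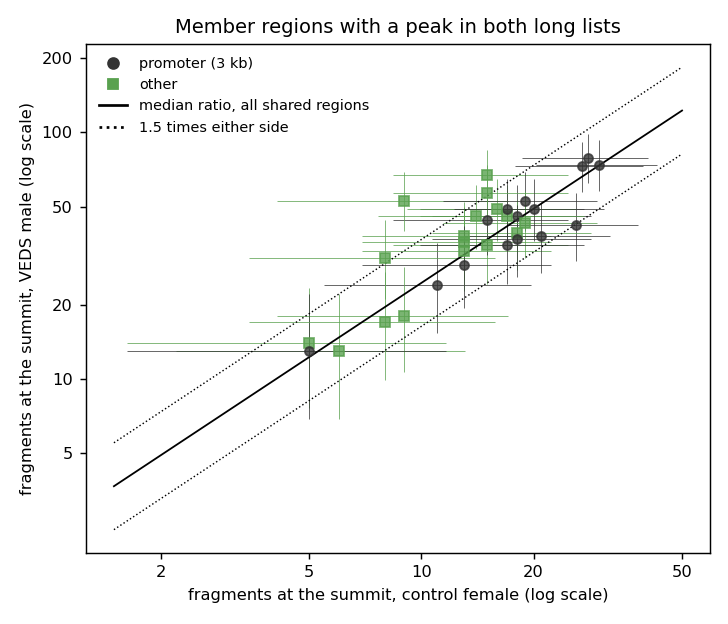
Fragments at the summit in control female (horizontal axis) and VEDS male (vertical axis), both on log scales, for the 32 member regions in both lists, with 95% Poisson intervals. Circles are regions within 3 kb of a TSS and squares the rest, the solid line is the median ratio of all shared regions (2.45) and the dotted lines lie 1.5 times to either side.

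The motif content of the 300-bp windows centered on the summits was near that of the whole lists for most of the 16 motifs searched. An AP-1 site was present in 8 of 36 control female windows (22.2%, 11.7–38.1), beside 14.3% of all windows of the list, and in 11 of 69 VEDS male windows (15.9%, 9.14–26.3), beside 14.5%. Most of these lay more than 3 kb from a TSS, with 6 of 20 windows there in control female (30%), beside 22.9% of all such windows, and 10 of 41 in VEDS male (24.4%), beside 19.4%. The SMAD CAGA box was present in 3 windows of control female (8.33%, 2.87–21.8), beside 6.72%, and in 7 of VEDS male (10.1%, 5.0–19.5), beside 7.14%. The palindromic SMAD element was in 1 window of each list, at *Smad7* in control female and at *Tgfb2* in VEDS male, beside 0.379% and 0.348% of all windows. The GC SMAD site had the lower share at the 10 genes in both lists. It was in 12 of 36 control female windows (33.3%, 20.2–49.7), beside 42.5%. In VEDS male it was in 18 of 69 (26.1%, 17.2–37.5), beside 34.0%. A TEAD site, bound by the effectors of Hippo signaling, was in 8 windows (22.2%, 11.7–38.1) and in 17 (24.6%, 16.0–36.0), beside 18.1% and 19.0%. KLF/SP sites were in 11 (30.6%, 18.0–46.9) and 16 (23.2%, 14.8–34.4), beside 40.0% and 29.7%.

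Over both lists, 2 of the 32 intervals left out the share of all windows, that of the palindromic SMAD element in control female (0.492–14.2), which rests on a single window, and that of an E-box in VEDS male. The E-box CAGGTG, bound by the ZEB and SNAI repressors, was in 4 of 69 VEDS male windows (5.80%, 2.28–14), beside 15.0%, and more than 3 kb from a TSS in 1 of 41, beside 14.6% of all such windows. In control female it was in 2 of 36 (5.56%, 1.54–18.1), beside 13.3%, but 34 of these 36 peaks overlapped VEDS male peaks, so that the lists are not separate looks. The cAMP response element TGACGTCA was in 0 windows of either list, beside 2.59% and 1.77% of all windows. The intervals reached 9.64% and 5.27% and held these shares, so that no absence is read. The full steroid receptor element was also in 0 windows, beside 0.0379% and 0.0435%, shares at which 0 in so few windows tells nothing. MEF2 sites were in 1 of 36 and 3 of 69 windows, beside 5.55% and 5.79%. Among windows more than 3 kb from a TSS, intervals of RUNX and FOX also left out the share. RUNX was in 6 of 41 in VEDS male (14.6%, 6.88–28.4), beside 6.26%. FOX was in 3 of 20 in control female (15%, 5.24–36.0), beside 4.08%. In the other long list RUNX was in 1 of 20, beside 5.65%, and FOX in 4 of 41 (3.86–22.5), beside 3.93%. This split is not part of the 32 intervals and rests on few windows.

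**Figure D5:**
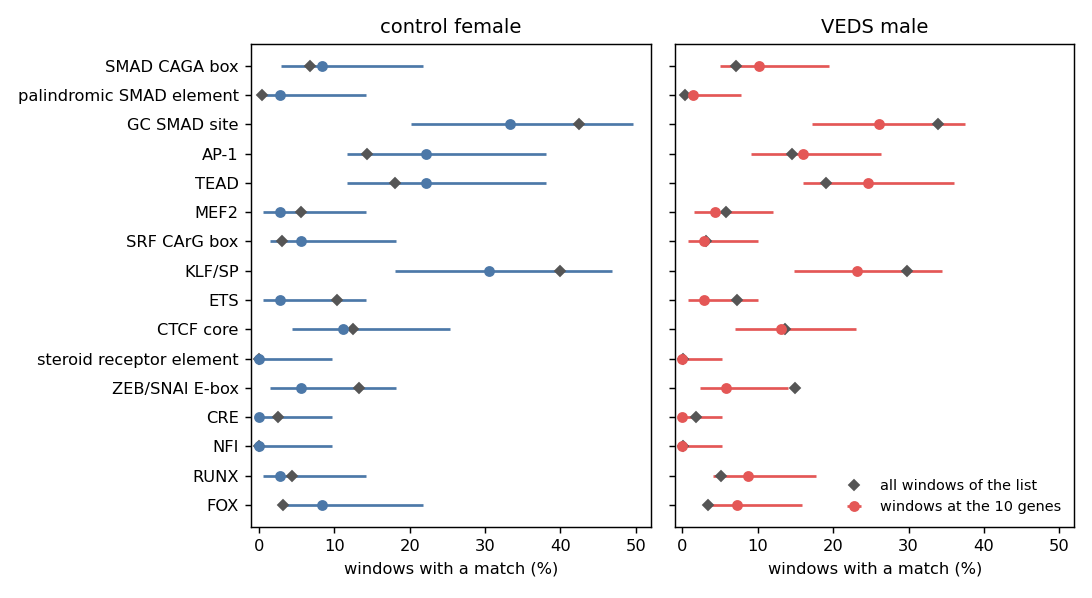
Share of 300-bp windows with at least 1 match (horizontal axis, %) for the 16 motifs (vertical axis), in control female (left, 36 windows at the 10 genes) and VEDS male (right, 69 windows). Points with 95% Wilson intervals are windows at the 10 genes and diamonds all windows of the list. The E-box in VEDS male (5.80% beside 15.0%) has an interval that leaves out the diamond, as has the palindromic SMAD element in control female.

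The other genes of the pathway were counted by promoter peak in the same lists. Of 48 such genes, 35 had one in control female (72.9%) and 45 in VEDS male (93.8%), beside 47.4% and 58.5% of all protein-coding genes, and 0 had one in either short list. For the proteins that hold the ligand latent, such as the latent TGF-β binding proteins and fibrillin-1, the counts were 4 and 7 of 7. They were 5 and 7 of 7 for those that activate it, 7 and 11 of 11 for other receptors of the family, 3 and 4 of 4 for other SMADs, and 9 and 9 of 11 for inhibitors. Of 8 target genes 7 had a promoter peak in both, and these had the highest median percentile of rank among the 6 roles, 77.6 in control female and 90.6 in VEDS male. The VSMC markers had 73.6 and 87.1, and the median over the promoter peaks of all genes was not computed. No activity of the pathway was read from these percentiles. The genes with a promoter peak in neither list were *Tgif2*, a nuclear corepressor of SMADs, *Dcn*, the proteoglycan decorin that binds TGF-β, and *Tgfbi*, a matrix protein induced by the pathway.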

How the data were processed

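Nuclei were prepared with the Chromium Single Cell ATAC workflow and each library was analysed in aggregate. Per the labels and the study's methods, the authors aligned the reads to mm10 and called narrow peaks in each library with MACS2. Duplicates were removed within barcodes, the Tn5 offset was corrected and blacklisted regions were left out. The aligner was not given in the sources used here. Each deposited list gives peak coordinates, a display score (not read here), the fold enrichment (a ratio to local background in that library), −log10 p and −log10 q. The total number of fragments per library is not known, so that depth was judged from the fragments at summits.

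For each summit the whole fragment count was sought that yields the listed fold enrichment (pseudocount 1) together with the listed −log10 p under a Poisson law, within 0.1%, which succeeded for 99.2% to 99.9% of peaks per list. These counts are called fragments here, although they may be Tn5 cut sites. In tests on simulated peaks 500 of 500 were recovered in each of 3 depth ranges. The simulated peaks were made with the same formulas, so that this checks the computation only. It cannot show what the listed values count. Groups were taken from the sample titles. Peaks were assigned to the 10 genes, merged where they shared 1 bp or more, annotated against GENCODE vM21 in the priority order of ChIPseeker (promoter within 3 kb), ranked by −log10 q and searched on both strands of GRCm38.p6 in 300-bp windows. Motifs were the SMAD CAGA box CCAGACA, the palindromic SMAD element GTCTAGAC, the GC SMAD site GGCGC, AP-1 TGANTCA, TEAD GGAATG, KLF/SP GGGCGG, ETS CCGGAAG, the E-box CAGGTG, CRE TGACGTCA, RUNX AACCACA and FOX TGTTTAC, and by name MEF2, the CArG box, the CTCF core, the steroid receptor element and NFI. The GC SMAD site and KLF/SP can overlap. RefSeq promoters (GRCm38.p6) were found for 5 of the 10 genes. Intervals are Wilson for shares and exact Poisson or Clopper-Pearson for fragments, all 95%, and cover counting error only.

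No test between genotypes was made: with 2 libraries against 2, an exact two-sided permutation test cannot go below p = 0.333. The genes and lists were chosen with earlier results of these data known. Named in detail were, for each gene, the promoter peak and the strongest peak farther than 3 kb from a TSS in each long list, the 3 strongest peaks absent from the other long list, and windows with a SMAD element and AP-1. The peaks at neighbouring genes, the palindromic SMAD element, the CArG box and the sequences at *Tgfbr3* and *Tgfb1* were added after their values had been seen. Python 3.11.15, pandas, scipy and samtools were used. Alternatives were other flanks (0, 5 and 50 kb), −log10 q of at least 5 or 10, equal list size, other windows, motif letters, overlap and promoter rules, and leaving out each library.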

Additional observations from a re-analysis of the deposited data

How the results depend on the processing

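Over 21 results, 92 of 111 alternatives left the value within 1.5 times the count or within the interval of the share, and no direction was at stake in these descriptions. Many of the 92 were values of 0 that stayed 0, for the short lists and the steroid receptor element. Such values could hardly move, and at equal list size the VEDS female list was unchanged. The 92 of 111 therefore overstates how stable the other values were. With gene bodies alone, control female held 23 member peaks. With −log10 q of at least 10, control female held 15, VEDS male 33, and the regions numbered 33. When each list was reduced to its 504 strongest peaks, both long lists held 0 member peaks, at 0 of 10 promoters, so that no shared share could be computed at equal list size. With flanks of 50 kb, control male gained 1 peak, near *Tgfb1* but at the start of *Hnrnpul1* (chr7:25755019-25755440). Leaving out 1 library gave 36 to 71 regions, 36 without the VEDS male library. Of the control female member peaks 100% were shared at −log10 q of at least 5 (26 of 26) and at 10 (15 of 15), beside 97.8% and 99% of all control female peaks, because both unshared peaks were weak.

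The shorter element CAGACA was in 25% of control female windows and 20.3% of VEDS male windows, beside 20.4% and 22.3% of all, and the longer AGCCAGACA was in 2.78% and 0%, beside 0.629% and 0.691%. The E-box in VEDS male was in 0% of 200-bp windows, beside 9.45%, and in 1.92% of windows at −log10 q of at least 5, beside 14.5%. Chosen after the data had been seen, a floor of 10 fragments in control female left 2 regions at least 1.5 times higher in VEDS male, of 25, beside 4.85%, and the *Tgfbr3* intron fell under it. No paired analysis was possible because the result comes from no test, and the replicate numbers only name the libraries. Totals of fragments are unknown and 1 library stands for each genotype and sex, so that a peak missing from a list was not read as closed chromatin.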

Other observations

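The summits of the long lists fell close to each other at most shared regions of the 10 genes. Among the 30 regions with 1 peak in each long list the median distance between the summits was 56 bp, and in 28 of them it was at most 150 bp. The exceptions were the *Smad7* promoter, at 527 bp, and a region downstream of *Tgfb1* annotated as 3′ UTR, at 185 bp, where the summits held 8 fragments in control female and 17 in VEDS male.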
